A study of Homo sapiens with 21 samples.

Results

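The genes described here are 40 members of the ATF4 stress response, taken by symbol from a deposited table of 20423 genes. They comprise 10 stress factors, 7 other stress targets, 10 genes of amino acid synthesis and 13 cytosolic aminoacyl-tRNA synthetases. The members were picked by gene name as parts of the pathway, with earlier results of these data known. Their messages were read by RNA sequencing in THP1, a human acute myeloid leukemia line with monocytic features.

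The integrated stress response begins when a stress-sensing kinase phosphorylates the translation factor eIF2. General translation then falls while the ATF4 message is translated more, and ATF4, a basic leucine zipper transcription factor, turns on genes for amino acid synthesis and uptake, tRNA charging and feedback on the pathway. ATF4 often binds with C/EBP proteins at a composite element in its target promoters. ATF7 and JDP2 belong to the same large family of leucine zipper factors and bind cAMP response elements, while IRF2BP2 is a transcriptional cofactor.

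The IRF2BP2 knockdown had 6 libraries, 3 for each of 2 short hairpins (shRNA1 and shRNA2) carried by the pLKO.1 lentiviral vector. The ATF7 KO had 4 libraries and the JDP2 KO had 4, in each case 2 libraries from each of 2 clones (KO1 and KO2) grown from single cells after Lenti-CRISPRv2 editing. A difference in a knockout thus rests on 2 clones, and a difference in the knockdown on 2 hairpins. The 5 control libraries were 2 of the shRNA Control, 1 of wild type (WT) cells and 2 of the KO Control. The labels name no added drug or stress. Of 21 labelled libraries 2 are marked low quality and were not analysed here. The question taken from the design was how each loss of function changed these messages relative to the controls. All 3 comparisons with controls share those 5 libraries.

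Reads assigned to genes numbered 28.7 to 60.2 M per library. Values are normalized counts, meaning read counts divided by a size factor for each library. The IRF2BP2 message was at 9456, 11110 and 9802 normalized counts with shRNA1 and at 12587, 16649 and 25651 with shRNA2. The controls were at 14859 to 21364. With shRNA2, replicate 2 was thus inside the control range, and the library labelled replicate 3 was above every control, against its label. ATF7 was at 363 to 645 in ATF7 KO and 210 to 537 in controls, and JDP2 at 3158 to 5693 in JDP2 KO and 2966 to 5085 in controls, so message levels do not check the knockout labels. In 3 libraries a larger share of genes lay over 2-fold from the median library than in the others (at most 14.8%): IRF2BP2 shRNA1 replicate 3 (48.5%), IRF2BP2 shRNA2 replicate 3 (25.6%) and JDP2 KO1 replicate 2 (38.2%). The labels do not say whether replicates were separate cultures, so p-values measure only the spread between these libraries. In bulk RNA, fewer cells of a type and less RNA per cell cannot be told apart.

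Promoter windows were available for 31 of the 40 genes, from 250 bases before to 50 bases after the RefSeq gene start on GRCh38.p14. The ATF4-CEBP composite element, searched as TGATGNAA on both strands, was present in 10 of 31 members, among them 6 of 10 synthetases, against 3.62% of 35116 promoters of the same length. The cAMP response element TGACGTCA, which is its own reverse complement, was present in 1 member (PPP1R15A), against 1.85% of all promoters. The AP-1 site, searched loosely as TGANTCA with any base at N, was present in 2 members (ATF5 and DDIT3), against 7.71% of all promoters. Both member matches were TGACTCA, and the share of that form among all promoters was not counted apart. The following windows are shown because each holds a searched element and belongs to a message that changed in the knockdown. Capitals mark the element, and each window is written 5′ to 3′ on the gene's strand. On AARS1 the element lies on the opposite strand.
ASNS: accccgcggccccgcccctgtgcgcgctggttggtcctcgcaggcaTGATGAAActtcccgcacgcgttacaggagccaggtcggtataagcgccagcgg
AARS1: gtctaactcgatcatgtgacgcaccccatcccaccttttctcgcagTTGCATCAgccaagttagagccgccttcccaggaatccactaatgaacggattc
ATF3: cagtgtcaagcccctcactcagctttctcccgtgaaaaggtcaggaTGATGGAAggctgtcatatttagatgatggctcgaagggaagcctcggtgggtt
PPP1R15A: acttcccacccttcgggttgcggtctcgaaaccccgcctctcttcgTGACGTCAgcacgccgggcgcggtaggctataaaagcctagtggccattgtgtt
ATF5: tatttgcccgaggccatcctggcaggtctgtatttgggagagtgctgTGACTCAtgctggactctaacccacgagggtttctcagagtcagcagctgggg

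The ASNS window is chr7:97872423-97872522 on the minus strand, and its element begins at position -68 relative to the start. The AARS1 window is chr16:70289640-70289739 on the minus strand, and its element begins at -187. For ATF3 the window is chr1:212565170-212565269 on the plus strand, with the element at -191. For PPP1R15A it is chr19:48872317-48872416 on the plus strand, with the element at -58. For ATF5 it is chr19:49928671-49928770 on the plus strand, with the element at -188. Of the 10 members with the ATF4-CEBP element, ATF3 rose and ASNS and AARS1 fell in the IRF2BP2 knockdown, while CHAC1, CARS1, IARS1, MARS1, NARS1 and TARS1 did not pass the test and FGF21 was too low to test. The element thus stood in promoters of messages that rose, that fell and that were not called.

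IRF2BP2 knockdown was accompanied by lower messages of the serine enzymes PHGDH, PSAT1 and PSPH, of CBS and CTH, and of ASNS and ALDH18A1, and by higher messages of ATF3, ATF5 and PPP1R15A. Of the 39 members that could be tested, 12 fell and 3 rose relative to the 5 controls (limma, Benjamini-Hochberg adjusted p under 0.05 over 13021 genes), and 24 did not pass the test. Among all genes tested 12.7% were called, 5.04% as lower and 7.64% as higher, against 30.8% and 7.69% of the members. The median log2 difference was -0.49 over the members and -0.02 over all genes. Amino acid synthesis accounted for 7 of the 12 lower calls. No member was called when the knockdown was set against the 2 shRNA Control libraries alone, a fit of 8 libraries in which 1.79% of all genes were called. The median of the synthetases there was -0.38, against -0.52 with all 5 controls, and CBS had a log2 difference of -2.63 (adjusted p = 0.111).

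**Figure D1:**
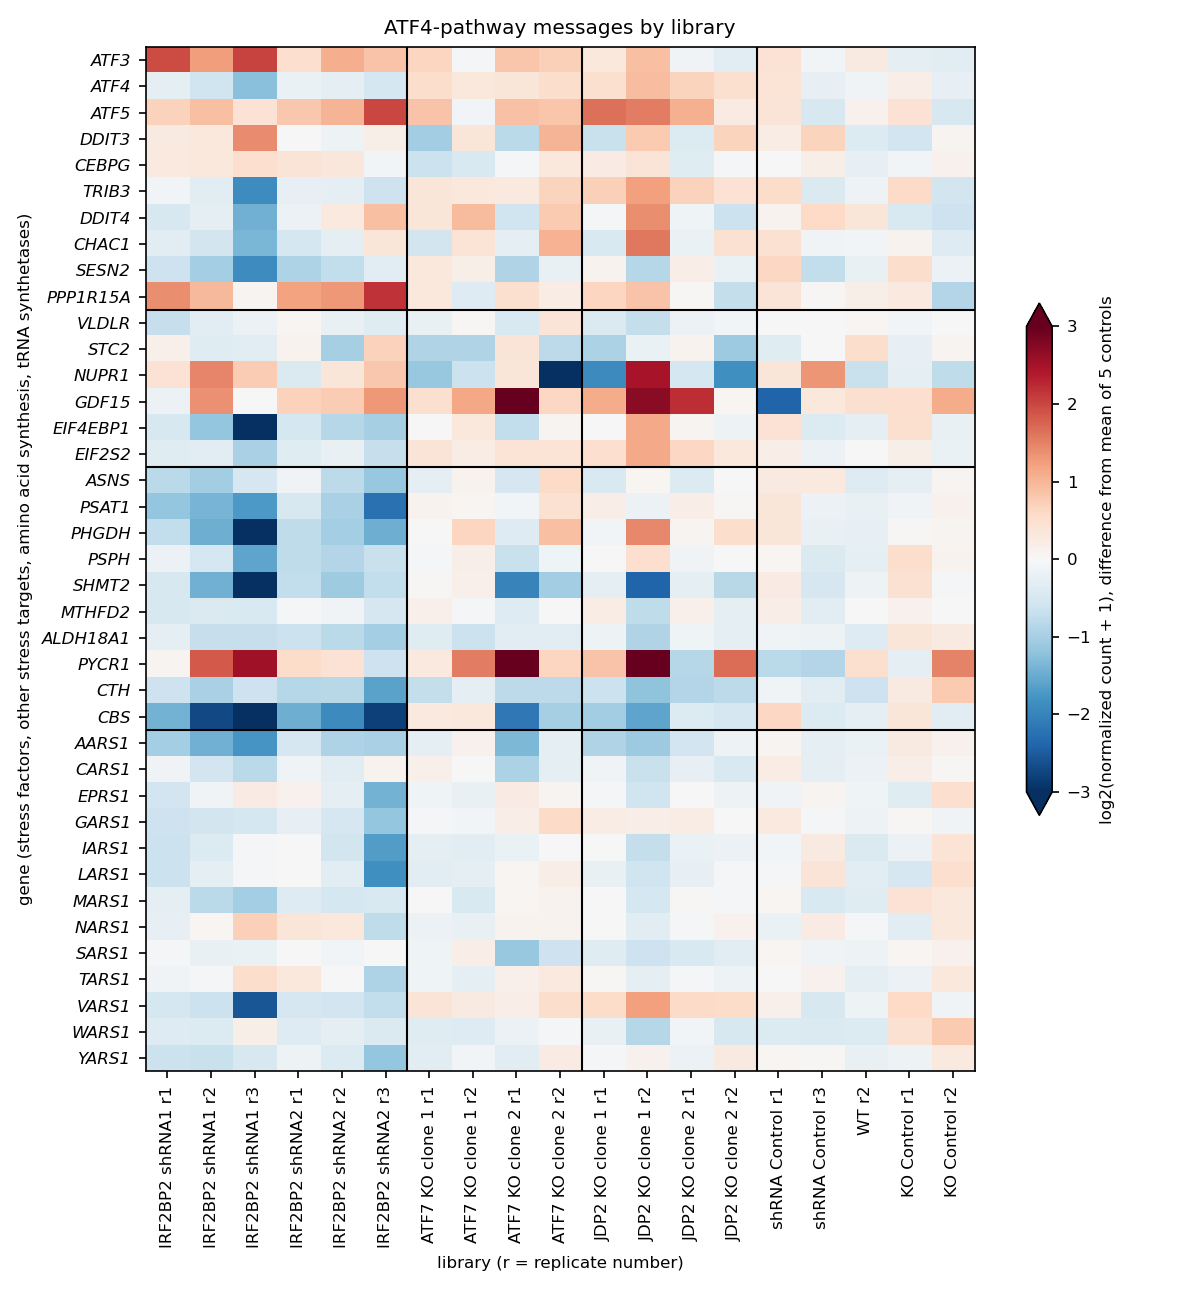
Log2(normalized count + 1) of 39 members in each of the 19 libraries (columns), as the difference from the mean of the 5 controls. Red is higher and blue lower, the scale stops at 3 in either direction, horizontal lines part the 4 gene groups and vertical lines part IRF2BP2 knockdown, ATF7 KO, JDP2 KO and controls. The amino acid rows from ASNS to CBS, other than PYCR1, are mostly blue in the 6 knockdown columns, while ATF3 is red there and PPP1R15A is red in all but shRNA1 replicate 3.

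Levels between genes can be set side by side only per length. Per kilobase of annotated exon, the control medians in normalized counts were highest for EIF4EBP1 (13250), EIF2S2 (7454), ATF4 (5896) and SHMT2 (5149). They were lowest for FGF21 (0), PYCR1 (1.13), NUPR1 (1.53), STC2 (2.14) and GDF15 (3.05), with ATF3 next at 11.4. ATF3, which rose in the knockdown, is thus among the lower messages of the set.

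The serine pathway is made of PHGDH, PSAT1 and PSPH, which convert a glycolytic intermediate into serine in successive steps. PHGDH, its first enzyme (chromosome 1, 119648411 to 119744226, plus strand, GRCh38), had a median of 7502 normalized counts (1690 to 10556) in the 6 knockdown libraries, against 22444, 15047, 14762, 17899 and 18396 in the controls. Every knockdown library was below every control, and the log2 difference was -1.47 ± 0.39 (SE; adjusted p = 0.0145). PSAT1, the aminotransferase of the pathway (chromosome 9, 78297143 to 78330093, plus strand), was at 1860, 1600 and 1270 with shRNA1 and at 3024, 2120 and 883 with shRNA2, against 5426, 3719, 3611, 3873 and 4574 in the controls. The groups again did not overlap, and PSAT1 fell by 1.33 ± 0.24 on the log2 scale (adjusted p = 0.0008). For PSPH, the final phosphatase, the knockdown median was 983 (540 to 1420), against 1682, 1186, 1338, 2324 and 1726 in the controls. Of the 6 knockdown libraries, 1 (shRNA1 replicate 1) lay above the lowest control, and the log2 difference was -0.76 ± 0.23 (adjusted p = 0.0333). The PSPH call held in 21 of 30 alternative settings and was lost without the 3 far libraries.

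Serine feeds the transsulfuration pathway, in which CBS joins it to homocysteine and CTH cleaves the product to cysteine. CBS (chromosome 21, 43053191 to 43076943, minus strand) was at 216, 86.7 and 19.4 with shRNA1 and at 207, 152 and 82.0 with shRNA2, against 887.7, 434, 480, 741 and 456 in the controls. Every knockdown library held less than every control, and the log2 difference of -2.52 ± 0.51 was the lowest among the members (adjusted p = 0.0021). CTH had a knockdown median of 149 (86.8 to 175), against 247, 216, 174, 322 and 461 in the controls. The groups met at the WT library, and the log2 difference was -0.92 ± 0.25 (adjusted p = 0.0164). The CTH call held in 26 of 30 alternative settings. It was lost without KO Control replicate 1 or replicate 2, with equal totals and with the shRNA Control alone. The annotation also holds CBSL, a near-identical copy of CBS, so reads could have been split between the pair.

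ALDH18A1, which makes the precursor of proline, had a knockdown median of 4453 (3568 to 5860), against 6730, 6496, 5534, 9317 and 8754 in the controls. Its log2 difference was -0.70 ± 0.20 (adjusted p = 0.0215), and shRNA1 replicate 1 was the knockdown library that reached into the control range. The ALDH18A1 call held in 25 of 30 alternative settings. It was lost without KO Control replicate 1 or replicate 2, with equal totals, with a group for each genotype and with the shRNA Control alone. ASNS, asparagine synthetase, was at 343, 289 and 424 with shRNA1 and at 555, 349 and 271 with shRNA2, against 718, 729, 457, 499 and 637 in the controls. Its log2 difference was -0.72 ± 0.23 (adjusted p = 0.0374), a call that held in 18 of 30 alternative settings and was lost with equal totals and without the 3 far libraries. In the annotation, 44.6% of ASNS exon bases are shared with a same-strand locus, AC079781.5, so the ASNS value carries that uncertainty.

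The mitochondrial serine hydroxymethyltransferase SHMT2 had a knockdown median of 13837 (3200 to 18380), against 30837, 18287, 23160, 35268 and 24911 in the controls. Only shRNA1 replicate 1 reached the lowest control, but the libraries were spread widely and the test was not passed (log2 difference -1.25 ± 0.45, adjusted p = 0.0734). MTHFD2, the mitochondrial folate enzyme that follows SHMT2, was at 2793 to 3900 in the knockdown and 3193 to 4568 in the controls, and was not called. PYCR1, the last enzyme of proline synthesis, was low, at 2.41 to 29.5 in the knockdown and 1.87 to 13.8 in the controls, and was not called.

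**Figure D2:**
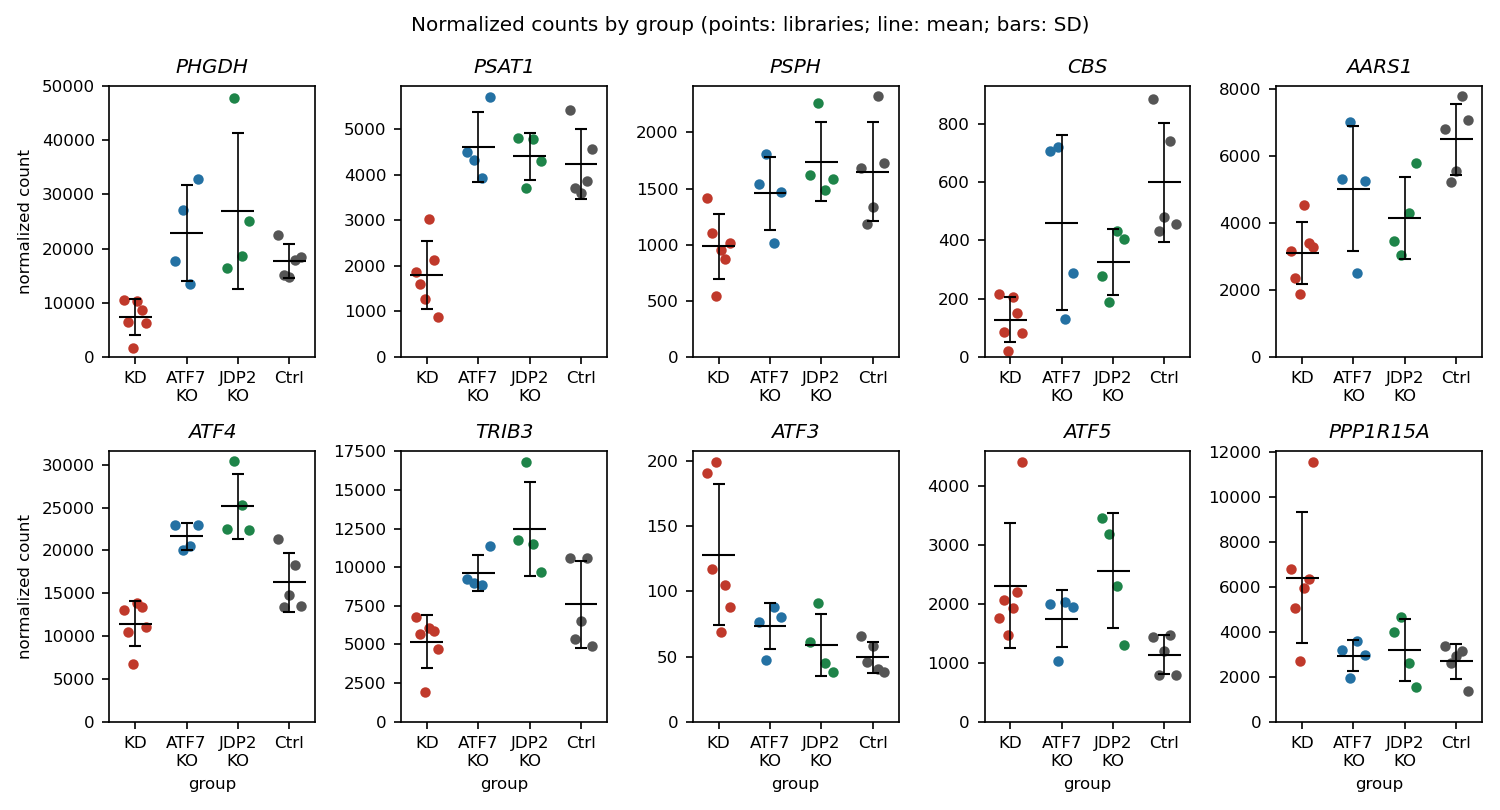
Normalized counts of 10 members in IRF2BP2 knockdown (KD), ATF7 KO, JDP2 KO and control (Ctrl) libraries. Each point is a library, horizontal lines are means and bars are SD (n = 6, 4, 4 and 5). PHGDH, PSAT1, CBS and AARS1 have every knockdown point below every control point, and ATF4 and TRIB3 have every knockdown point below every knockout point.

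Among the 13 cytosolic synthetases, which load amino acids onto their tRNAs, AARS1, GARS1 and YARS1 fell in the knockdown and 10 did not pass the test. The group's median log2 difference was -0.52, and 12 of 13 differences were below 0. AARS1, the alanine enzyme, was at 3154, 2359 and 1880 with shRNA1 and at 4516, 3400 and 3271 with shRNA2, against 6803, 5220, 5558, 7784 and 7065 in the controls. The groups were apart, and AARS1 fell by 1.10 ± 0.26 on the log2 scale (adjusted p = 0.0071). GARS1, the glycine enzyme, had a knockdown median of 5362 (3483 to 6544), against 9512, 7495, 7006, 8027 and 7195 in the controls. These groups did not overlap either, with a smaller log2 difference of -0.61 ± 0.19 (adjusted p = 0.0348), and the call held in 21 of 30 alternative settings. YARS1, the tyrosine enzyme, had a knockdown median of 4819 (3173 to 6325), against 7354, 7248, 6027, 6327 and 8698 in the controls. Its call was close to the threshold (log2 difference -0.58 ± 0.19, adjusted p = 0.0493) and held in 7 of 30 alternative settings.

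VARS1, the valine enzyme, was lower in every knockdown library than in every control, at a median of 11603 (3013 to 12461) against 19620, 12651, 15932, 26904 and 16403. The test was narrowly missed (log2 difference -0.92 ± 0.31, adjusted p = 0.0514). MARS1, the methionine enzyme, had a knockdown median of 3790 (2623 to 4396), against 5496, 3886, 4135, 7223 and 6632 in the controls (log2 difference -0.58 ± 0.21, adjusted p = 0.0704). SARS1, the serine enzyme, stood at 2016 to 2339 in the knockdown and 2094 to 2562 in the controls. Its log2 difference was -0.09, with a 95% interval from -0.49 to 0.31. The values of IARS1, LARS1, EPRS1, CARS1 and WARS1 gave differences between -0.56 and -0.29, and those of TARS1 and NARS1 -0.04 and 0.08, all without a call.

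**Figure D3:**
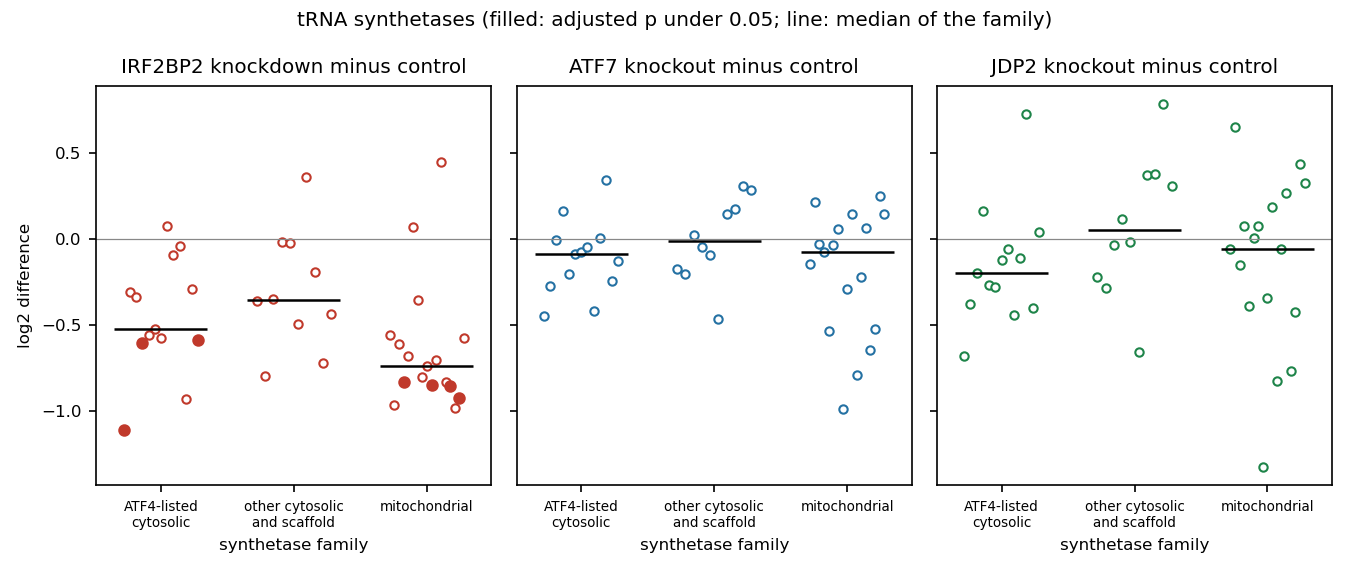
Log2 difference from the controls of each tRNA synthetase gene in IRF2BP2 knockdown, ATF7 KO and JDP2 KO, for the 13 members (ATF4-listed cytosolic), 10 other cytosolic synthetase or scaffold genes and 17 mitochondrial synthetases. Points are genes, filled where the adjusted p was under 0.05, and lines are family medians. In the knockdown 3 members and 4 mitochondrial genes are filled, all below 0, and in the knockouts no point is filled.

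The stress factors moved in both directions in the knockdown, with 3 higher, 1 lower and 6 of 10 without a call. ATF3, a stress-induced leucine zipper factor, was at 191, 117 and 200 with shRNA1 and at 69.2, 105 and 88.0 with shRNA2, against 65.7, 45.9, 58.3, 40.2 and 38.2 in the controls. Each knockdown library was above each control, and ATF3 rose by 1.28 ± 0.31 on the log2 scale (adjusted p = 0.0096). PPP1R15A, which encodes GADD34 and directs dephosphorylation of eIF2, was at 6795, 5069 and 2710 with shRNA1 and at 5955, 6369 and 11551 with shRNA2, against 3353, 2628, 2914, 3136 and 1385 in the controls. Only shRNA1 replicate 3 fell within the control range, and the log2 difference was 1.19 ± 0.33 (adjusted p = 0.0184). ATF5, a relative of ATF4, had a knockdown median of 1991 (1475.9 to 4407), against 1428, 782, 1203, 1475.7 and 789 in the controls. The lowest knockdown library and the highest control were almost level, and the log2 difference was 0.98 ± 0.30 (adjusted p = 0.0324), called in 23 of 30 alternative settings. The annotation places 23.7% of ATF5 exon bases under exons of IL4I1, NUP62 and MIR4751, mostly on the opposite strand.

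SESN2, a stress-induced inhibitor of mTORC1 signalling, had a knockdown median of 1051 (503 to 1492), against 2863, 1117, 1583, 2667 and 1656 in the controls. It fell by 0.92 ± 0.30 on the log2 scale (adjusted p = 0.0463), and the call held in 13 of 30 alternative settings. ATF4 itself was at 13077, 10519 and 6754 with shRNA1 and at 13841, 13346 and 11083 with shRNA2, against 21318, 13426, 14823, 18293 and 13527 in the controls. Of the 6 knockdown libraries, 5 lay below the lowest control, and the log2 difference of -0.52 ± 0.21 was not called (adjusted p = 0.107). TRIB3, a pseudokinase that feeds back on ATF4, had a knockdown median of 5781 (1942 to 6809), against 10570, 5353, 6501, 10617 and 4913 in the controls, and was not called (log2 difference -0.58 ± 0.29, adjusted p = 0.204). DDIT3, which encodes CHOP, CHAC1, a glutathione-degrading enzyme, DDIT4, an mTORC1 inhibitor, and CEBPG, a partner of ATF4, had differences of 0.34, -0.45, -0.20 and 0.29 without a call. DDIT3 shares 39.6% of its exon bases with other genes, mainly on the opposite strand, and DDIT4 41.2% with its antisense RNA, and the strand setting of the counts is not given in the sources used here.

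Of the other stress targets, EIF4EBP1 fell in the knockdown and 5 of the 6 tested did not pass. EIF4EBP1, a translation repressor controlled by mTORC1, had a knockdown median of 8850 (1747 to 12043), against 22532, 12540, 13944, 23310 and 14221 in the controls. The groups did not overlap, the log2 difference was -1.21 ± 0.39 (adjusted p = 0.0434), and the call held in 14 of 30 alternative settings. EIF2S2, the beta subunit of eIF2, had a knockdown median of 15480 (10239 to 17050), against 23113, 17590, 19798, 22688 and 17453 in the controls. It was lower in every knockdown library without passing the test (log2 difference -0.49 ± 0.20, adjusted p = 0.113). VLDLR, a lipoprotein receptor, had a knockdown median of 1258 (946 to 1601), against 1542, 1531, 1588, 1436 and 1540 in the controls, and was not called (log2 difference -0.28, adjusted p = 0.336). STC2, NUPR1 and GDF15, secreted or chromatin-associated stress proteins, were at 31.3 normalized counts or less in every knockdown and control library. FGF21, a secreted hormone, was at 0 in 14 of 19 libraries and was not tested.

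In all, 8 members were lower and 2 higher in every knockdown library than in every control of the 39 tested, against 5.11% and 6.06% of all genes. The lower ones were PHGDH, PSAT1, CBS, AARS1, GARS1, VARS1, EIF4EBP1 and EIF2S2. Without the 3 libraries far from the median, 3 members rose and 10 fell, among them 5 of amino acid synthesis and 3 synthetases, against 8.57% of all genes higher and 5.26% lower (13.8% called). PSAT1, PHGDH, CBS, AARS1 and ATF3 kept their calls in 29 of 30 alternatives, the exception being the fit with the shRNA Control alone. Of these alternatives 19 left out 1 library each. Where that was a knockout library, the differences could not move and only the test around them could.

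**Figure D4:**
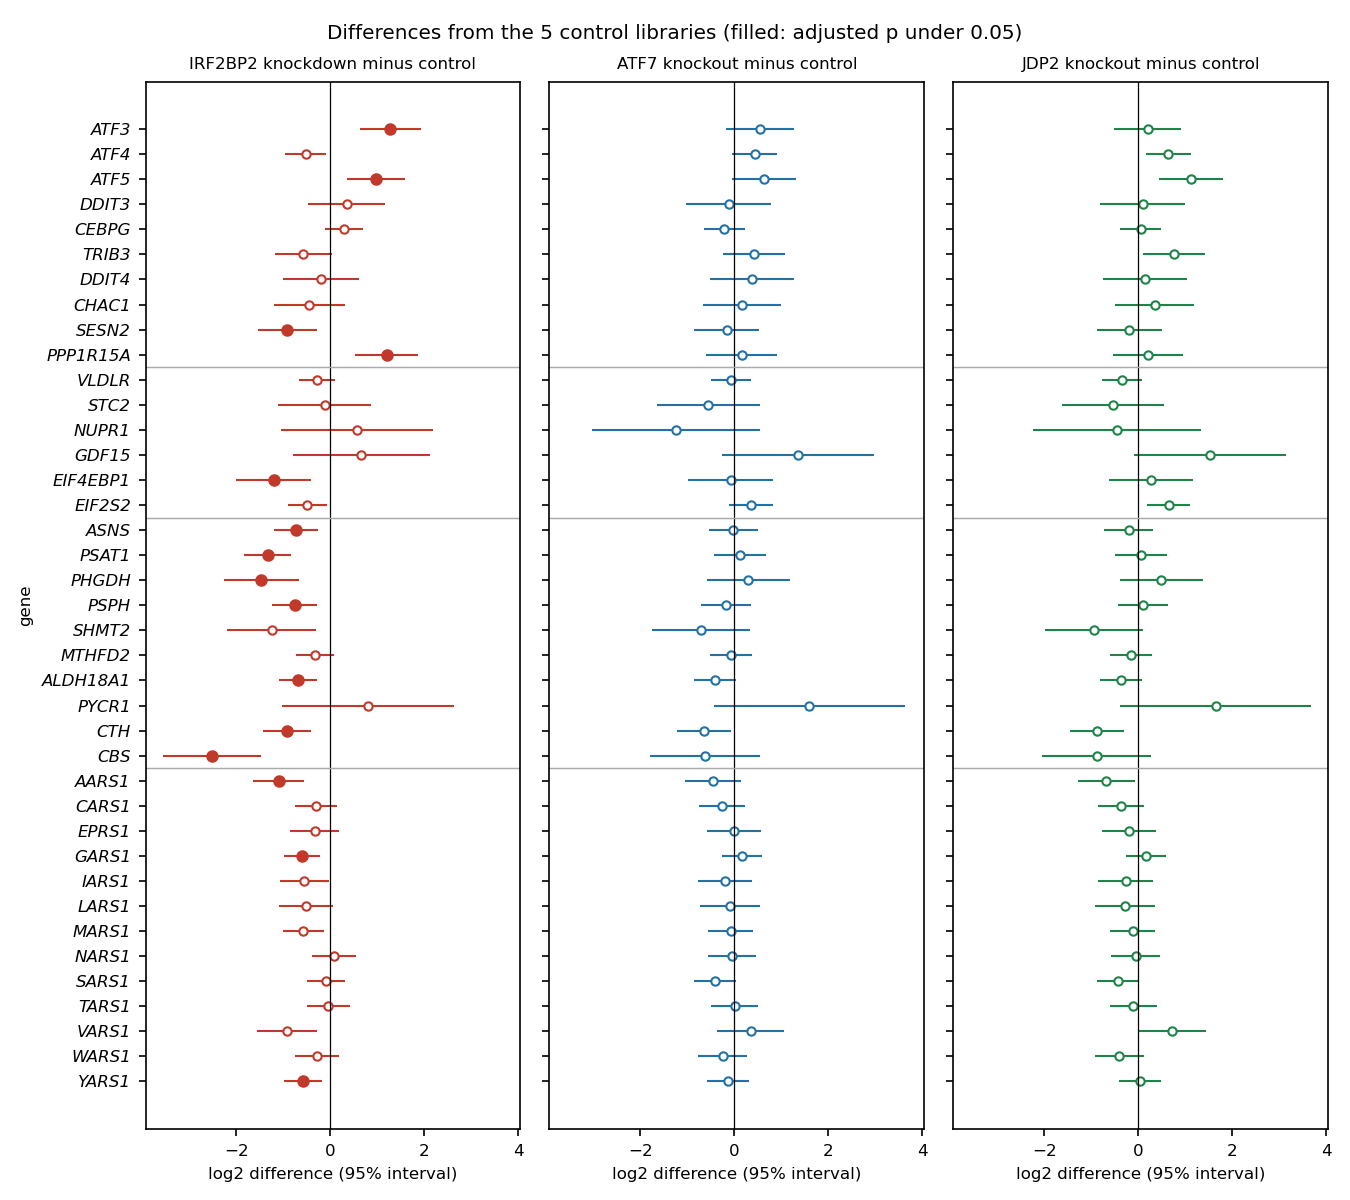
Log2 difference from the 5 controls of 39 members in IRF2BP2 knockdown, ATF7 KO and JDP2 KO, with 95% intervals from limma. Filled points passed an adjusted p under 0.05. The knockdown panel has 15 filled points, 12 of them to the left of 0, and the knockout panels have no filled point.

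The knockdown was also compared with controls by the authors. At an adjusted p under 0.05 in the authors' deposited table, 17 members were lower and 3 higher, of 39 with an adjusted p, against 6.84% of all genes lower and 10.6% higher. The 5 members it adds are ATF4 with a log2 fold change of -0.49 (adjusted p = 0.0469 in the authors' deposited table), EIF2S2, SHMT2, MARS1 and VARS1. DESeq2 run on the recovered reads called 20 members, 3 higher and 17 lower, against 17.6% of all genes, 10.6% higher and 6.93% lower. That run used the authors' method on the authors' own values, so it is not an independent result.

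Markers of THP1 and of other cells moved with the knockdown. Of 9 markers expected in THP1 cells, FCER1G, CSF1R, TYROBP and PTPRC rose, by 3.08, 2.76, 3.03 and 1.68 on the log2 scale, and the summed level of the list was 67430 to 192549 in the knockdown and 54099 to 153320 in the controls. PECAM1, an adhesion molecule from the list of 9 markers of other cells that monocytes also carry, rose too, by 1.99, and that list's sum was 2836 to 9464 in the knockdown, against 1231 to 2000 in the controls. The median level of CD3E and of MS4A1 was 0. LYZ, ELANE and SPI1 were at 5183 or more in every library, while MPO, another expected myeloid marker, was at 15.1 to 119. The part of these marker changes in the member results was not tested.

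Loss of ATF7 left no member past the threshold. None of the 39 members was called with limma, and edgeR and DESeq2 each called 0 as well, and 0.0307% of all genes were called. An unadjusted p under 0.05 was seen for 1 member of 39, against 7.69% of all genes. The median log2 difference was -0.07 over the members and 0.01 over all genes. CTH, the cystathionine-cleaving enzyme, was the member with an unadjusted p under 0.05, at 163, 217, 155 and 156 in ATF7 KO, against 247, 216, 174, 322 and 461 in the controls (log2 difference -0.64 ± 0.27, adjusted p = 0.577). EIF2S2 was above every control, at 26038, 23198, 26642 and 26393 in ATF7 KO, against 17453 to 23113 in the controls, with a log2 difference of 0.35 ± 0.22 (adjusted p = 0.741). It was the 1 member of 39 without overlap, against 2.2% of all genes that were higher and 2.54% that were lower in this way.

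ATF4 was at 22958, 20064, 20512 and 22998 in ATF7 KO, against 13426 to 21318 in the controls, and its interval ran from -0.05 to 0.92 around a difference of 0.43. ATF5 was at 1986, 1027, 2025 and 1947, with KO1 replicate 2 apart from the others, against 782 to 1475.7 in the controls (log2 difference 0.62 ± 0.33). ATF3 was at 76.5, 47.7, 87.9 and 80.4, against 38.2 to 65.7 in the controls (log2 difference 0.54 ± 0.35). The serine enzymes PHGDH and PSAT1 had differences of 0.30 and 0.13, where the knockdown had -1.47 and -1.33. AARS1 was at 5314, 7012, 2499 and 5257 in ATF7 KO (log2 difference -0.45 ± 0.29) and SARS1 at 2149, 2691, 1068 and 1522 (log2 difference -0.42 ± 0.21), against 5220 to 7784 and 2094 to 2562 in the controls.

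CBS and SHMT2 were split between the ATF7 clones. CBS was at 709 and 720 in KO1 and at 128 and 289 in KO2, and SHMT2 was at 26259 and 28759 in KO1 and at 6487 and 12629 in KO2. Set between the clones, KO2 minus KO1 gave -1.88 ± 0.75 for CBS (adjusted p = 0.599), -1.60 ± 0.69 for SHMT2 (adjusted p = 0.708) and -0.91 ± 0.29 for SARS1 (adjusted p = 0.331). In that comparison limma and edgeR called 0 members and 4 had an unadjusted p under 0.05 (5.92% of all genes did), against 0.545% of all genes called, 0.284% higher and 0.261% lower. DESeq2 called SARS1 (1.35% of all genes), and SHMT2 and CBS passed once the 3 far libraries were left out (adjusted p = 0.0395 and 0.0422, with 2.86% of all genes called).

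Loss of JDP2 likewise gave no call with limma. None of the 39 members was called, against 2.6% of all genes (0.829% higher and 1.77% lower), while 7 members had an unadjusted p under 0.05, against 22.4% of all genes. On the recovered reads edgeR called 2 members (ATF5 higher, CTH lower), against 4.51% of all genes. DESeq2 called 5 of 36 (ATF4, ATF5, EIF2S2 and PYCR1 higher, CTH lower), against 13.1% of all genes. The authors' deposited table, made with the same method from the same libraries, names the same 5 genes, of 36 with an adjusted p, against 12.1% of all genes. Each of these counts is near or below the share over all genes. Under limma, leaving out a single knockdown library, IRF2BP2 shRNA1 replicate 3, brought 6 calls among 39 members (ATF4, ATF5, TRIB3, EIF2S2 and VARS1 higher, CTH lower), against 11.7% of all genes. That library enters this comparison only through the spread shared by the fit, and the differences themselves did not move. Leaving out IRF2BP2 shRNA2 replicate 3 brought 2 calls (ATF5 and CTH, against 4.31% of all genes), and leaving out JDP2 KO2 replicate 2 brought 1 (ATF5, against 1.45%).

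ATF4 was at 22448, 30432, 25242 and 22364 in JDP2 KO, against 21318, 13426, 14823, 18293 and 13527 in the controls. Every JDP2 KO library was above every control, and the log2 difference was 0.64 ± 0.23 (adjusted p = 0.113). ATF5 was at 3449, 3181, 2292 and 1295, against 1428, 782, 1203, 1475.7 and 789 in the controls. Its log2 difference was 1.13 ± 0.33 (adjusted p = 0.0615), with KO2 replicate 2 inside the control range. EIF2S2 was at 28526, 44082, 30630 and 24709, all above the controls (17453 to 23113), with a log2 difference of 0.64 ± 0.22 (adjusted p = 0.0976). TRIB3 was at 11750, 16796, 11536 and 9699, against 4913 to 10617 in the controls (log2 difference 0.76 ± 0.32, adjusted p = 0.164). VARS1 was at 25936, 41367, 26432 and 26077, against 12651 to 26904 in the controls (log2 difference 0.73 ± 0.34, adjusted p = 0.212).

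CTH was lower than every control in JDP2 KO, at 172, 116, 145 and 154 against 174 to 461 (log2 difference -0.88 ± 0.27, adjusted p = 0.0751). CBS was at 279, 190, 433 and 404, against 434 to 887.7 in the controls, with the nearest libraries almost level, and the difference of -0.89 ± 0.56 was far from a call (adjusted p = 0.354). SARS1 was at 1818, 1525, 1698 and 1885, against 2094 to 2562 in the controls (log2 difference -0.44 ± 0.21, adjusted p = 0.228). AARS1 was at 3456, 3030, 4278 and 5792, against 5220 to 7784 in the controls (log2 difference -0.68 ± 0.29, adjusted p = 0.171). SHMT2 was at 21213, 4845, 21427 and 14454, with KO1 replicate 2 far below the rest, against 18287 to 35268 in the controls (log2 difference -0.95 ± 0.50, adjusted p = 0.267). In this comparison 2 members were higher and 3 lower than every control without overlap, of 39, against 7.34% and 6.19% of all genes.

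PHGDH and PSAT1 had differences of 0.49 and 0.06 in JDP2 KO, without a call. EIF4EBP1 was at 16675, 36651, 17717 and 15142 in JDP2 KO, against 12540 to 23310 in the controls, and its difference of 0.27 became -0.021 without KO1 replicate 2. VLDLR was at 1132, 925, 1352 and 1447 in JDP2 KO and at 1308, 1574, 1103 and 1991 in ATF7 KO, against 1436 to 1588 in the controls, with differences of -0.35 and -0.07. The median of the stress factors in JDP2 KO was 0.20 with the deposited size factors and 0.13 with TMM scaling, but -0.04 with equal totals, a scaling that put the median of all genes at -0.25, against -0.01. Of the genes called in JDP2 KO over the whole table, 31.9% were higher with the deposited size factors, 12.2% with TMM and 16.9% with equal totals.

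The JDP2 KO and ATF7 KO groups were then set against each other. No member was called (limma, edgeR and DESeq2 0 each, and 0 at an unadjusted p under 0.05), against 0.0384% of all genes, 0.0154% higher and 0.023% lower. The member differences, JDP2 KO minus ATF7 KO, ran from -0.35 to 0.78 with a median of -0.01. VARS1 was the 1 member without overlap, at 25936 to 41367 in JDP2 KO against 20366 to 25716 in ATF7 KO, and 1.53% of all genes were higher and 0.914% lower in this way. Between the JDP2 clones 0 members were called by limma, edgeR and DESeq2, 1 had an unadjusted p under 0.05 (2.6% of all genes did), and 0.261% of all genes were called, 0.0691% higher and 0.192% lower.

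**Figure D5:**
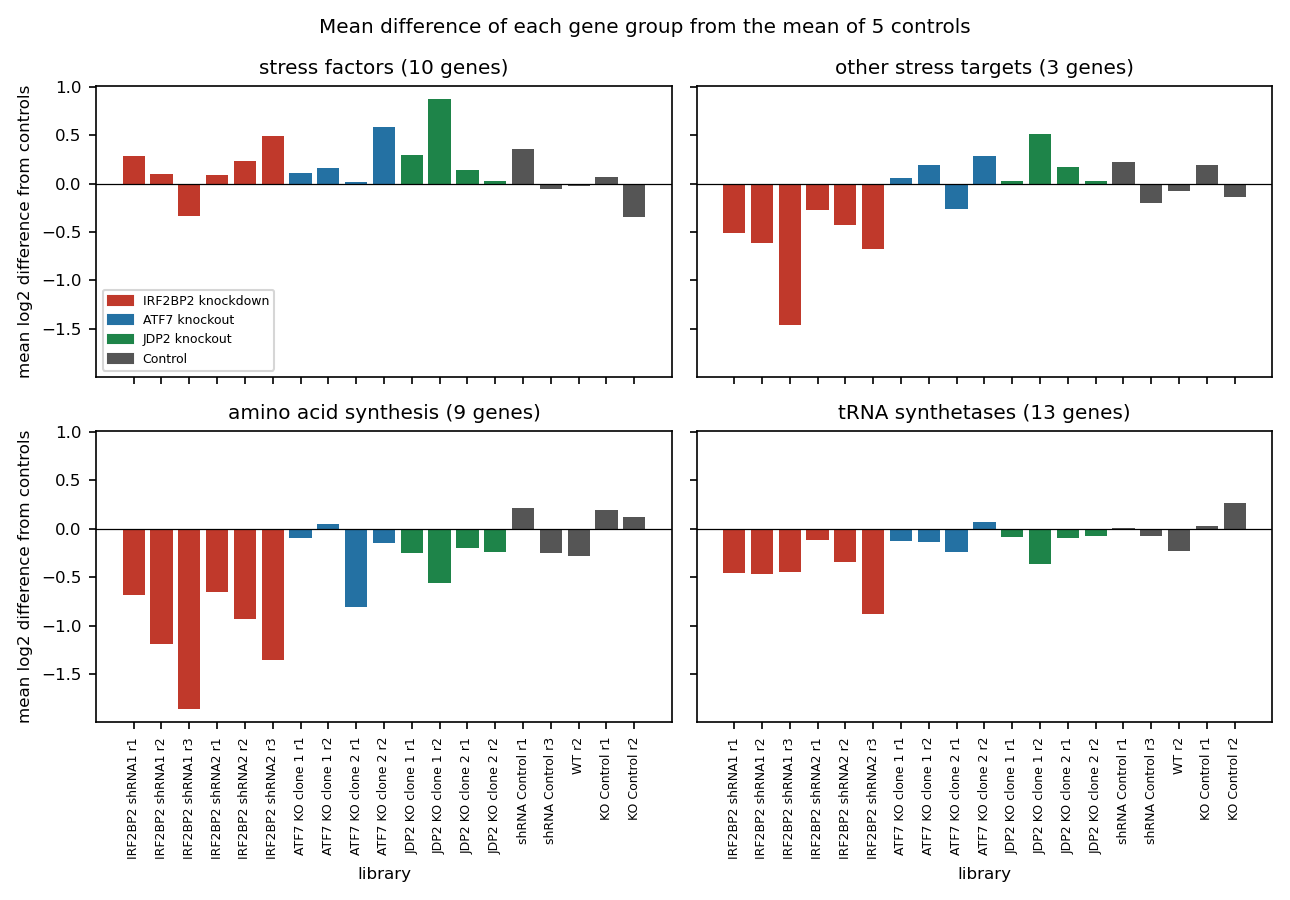
Mean log2 difference from the mean of the 5 controls over the genes of each group averaging 50 normalized counts or more, in each of the 19 libraries (bars). The amino acid group lies between -1.86 and -0.65 in the 6 knockdown libraries and between -0.28 and 0.21 in the controls, while the stress factors of the knockdown lie between -0.34 and 0.49.

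The knockdown was also set directly against the knockouts, as IRF2BP2 knockdown minus the mean of ATF7 KO and JDP2 KO. The controls enter this comparison only through the shared estimate of the spread. Here 14 members were lower and 2 higher in the knockdown, 35.9% and 5.13% of the 39 tested, and 23 had no call. Of all genes 36.5% were called, 17.8% as lower and 18.8% as higher. With equal totals in place of the deposited size factors, 66.6% of the calls were higher, against 51.4%. The median difference over the members was -0.42, against -0.00 over all genes.

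ATF4 differed between these groups, at 6754 to 13841 (median 12080) in the knockdown, against 22958, 20064, 20512 and 22998 in ATF7 KO and 22448, 30432, 25242 and 22364 in JDP2 KO. It was lower in every knockdown library, by 1.06 ± 0.19 on the log2 scale (adjusted p = 0.0002). TRIB3 was at 1942 to 6809 in the knockdown against 9254, 9003, 8841 and 11353 in ATF7 KO and 9699 to 16796 in JDP2 KO (log2 difference -1.16 ± 0.26, adjusted p = 0.0015). The stress factors ATF3 and PPP1R15A were higher in the knockdown (0.91 ± 0.28 and 1.01 ± 0.29, adjusted p = 0.0149 and 0.0097). ATF3 was at 61.1, 91.4, 45.4 and 38.1 in JDP2 KO, and PPP1R15A at 3182, 1965, 3603 and 2982 in ATF7 KO and 4000, 4643, 2628 and 1566 in JDP2 KO. The knockdown libraries thus had less ATF4 message and, on average, more ATF3 and PPP1R15A message than the knockouts. Unlike ATF4, both of the latter overlapped with the knockouts. ATF3 was at 69.2 in shRNA2 replicate 1, within the ATF7 KO range of 47.7 to 87.9. In shRNA2 replicate 3 ATF3 was at 88.0, below JDP2 KO1 replicate 2 at 91.4. PPP1R15A was at 2710 in shRNA1 replicate 3.

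SESN2 was at 503 to 1492 in the knockdown, against 2302, 2102, 992 and 1591 in ATF7 KO and 2017, 1024, 2130 and 1611 in JDP2 KO, with overlap. EIF4EBP1 was at 1747 to 12043 in the knockdown and at 16778, 20784, 10099 and 17699 in ATF7 KO, and only ATF7 KO2 replicate 1 of the knockout libraries was within the knockdown range. EIF2S2 fell by 0.99 ± 0.18 (adjusted p = 0.0003), EIF4EBP1 by 1.30 ± 0.35 (adjusted p = 0.0058) and SESN2 by 0.74 ± 0.27 (adjusted p = 0.0339) on the log2 scale in the knockdown relative to the knockouts. PHGDH was at 17733, 27179, 13489 and 32917 in ATF7 KO and 16437, 47720, 18535 and 25025 in JDP2 KO, all above the knockdown maximum of 10556 (log2 difference -1.86 ± 0.34, adjusted p = 0.0003). PSAT1 was at 4494, 4332, 3930 and 5711 in ATF7 KO and 4821, 3701, 4789 and 4310 in JDP2 KO, above the knockdown maximum of 3024, and its difference of -1.42 ± 0.21 had the lowest adjusted p of the members (4.52e-05). PSPH was at 540 to 1420 in the knockdown, against 1536, 1805, 1015 and 1467 in ATF7 KO and 1621, 2266, 1484 and 1588 in JDP2 KO, with only ATF7 KO2 replicate 1 inside the knockdown range. ASNS was at 271 to 555, against 495, 642, 419 and 885 in ATF7 KO and 437, 617, 446 and 604 in JDP2 KO, with overlap. CBS, PSPH and ASNS were lower in the knockdown, by log2 differences of -1.76, -0.72 and -0.61, while CTH and ALDH18A1, which had fallen relative to the controls, had differences of -0.16 and -0.30 without a call.

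Among the synthetases VARS1, GARS1, YARS1 and MARS1 were lower in the knockdown than in the knockouts. VARS1 was at 3013 to 12461 in the knockdown, against 23009, 21244, 20366 and 25716 in ATF7 KO and 25936 to 41367 in JDP2 KO (log2 difference -1.46 ± 0.28, adjusted p = 0.0004). GARS1 was at 3483 to 6544 in the knockdown, against 7592, 7331, 8970 and 11644 in ATF7 KO and 9050, 8966, 9073 and 7906 in JDP2 KO (log2 difference -0.77 ± 0.17, adjusted p = 0.0013). The groups were apart for VARS1 and for GARS1. YARS1 was at 3173 to 6325 in the knockdown, against 5640, 6629, 5584 and 8348 in ATF7 KO and 6837, 7701, 6289 and 8455 in JDP2 KO. MARS1 was at 2623 to 4396, against 5295, 3890, 5501 and 5714 in ATF7 KO and 5367, 3713, 5478 and 5223 in JDP2 KO. YARS1 and MARS1 overlapped with the knockouts and had smaller differences of -0.54 and -0.48 (adjusted p = 0.0178 and 0.0466), the call of MARS1 holding in 11 of 29 alternative settings, and AARS1 did not pass here (-0.54 ± 0.23, adjusted p = 0.0712). Over the members, 7 were lower in every knockdown library than in every knockout library (ATF4, TRIB3, EIF2S2, PSAT1, PHGDH, GARS1 and VARS1) and none was higher in every one, of 39, against 6.93% and 6.92% of all genes.

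The hairpins did not give a call between them. For shRNA2 minus shRNA1, limma called 0 members and 0.0% of all genes, edgeR and DESeq2 called 0 members, and 2 members had an unadjusted p under 0.05, against 8.8% of all genes. These were ATF3, with a log2 difference of -0.93 ± 0.37, and DDIT4, with 1.07 ± 0.45 (adjusted p = 0.54 each). ATF3 was thus at 69.2 to 105 with shRNA2 and 117 to 200 with shRNA1, both above the controls. The direction of the amino acid group was the same with each hairpin, since all 6 libraries lay below 0 in the plot of group means. With shRNA2, however, only replicate 1 had less IRF2BP2 message than every control.

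The wider pathway was read from gene lists of neighbouring functions. Of 17 mitochondrial synthetases, 4 fell in the knockdown relative to controls (NARS2, WARS2, EARS2 and TARS2, by 0.85, 0.92, 0.83 and 0.85 on the log2 scale) and none rose, with a median of -0.74, beside the 5.04% of all genes that fell. NARS2, which charges the mitochondrial asparagine tRNA, had an adjusted p of 0.0041. Of 10 other cytosolic synthetase and scaffold genes none was called by limma, and the median was -0.35. An unadjusted p under 0.05 was found for 3 of the 10, near the share of all genes (3537 of 13021). Of 11 tested genes of one-carbon and other amino acid metabolism, GPT2, a mitochondrial alanine aminotransferase, fell by 2.06 ± 0.31 (adjusted p = 0.0001), and BCAT1, a branched-chain aminotransferase, and MTHFD1L, a mitochondrial folate enzyme, fell by 1.09 and 0.89.

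Of 13 eIF2 kinase and eIF2B genes 1 was called in the knockdown, and of 10 genes of the unfolded protein response outside ATF4 also 1, both higher, which is near the 7.64% of all genes that were higher. EIF2AK2, which encodes PKR, a kinase of eIF2 that senses double-stranded RNA, rose by 1.37 ± 0.32 (adjusted p = 0.0071). In the unfolded protein response list DNAJB9, an endoplasmic reticulum co-chaperone, rose by 1.00 ± 0.25 (adjusted p = 0.0111), and the list's median was 0.08. In ATF7 KO none of these 5 lists had a call, and in JDP2 KO SDF2L1, an endoplasmic reticulum protein, was the single call (log2 difference 1.55 ± 0.38, adjusted p = 0.0344).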

How the data were processed

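Total RNA of THP1 cells was made into messenger RNA libraries, per the labels' protocols. Reads were counted per gene with featureCounts on hg38 and normalized with DESeq2, per the submitters' processing notes. For the aligner, the annotation and the strand mode, nothing was given in the sources used here. The authors deposited a normalized signal per gene and library, a read count divided by a size factor, for 20423 genes and 19 libraries. The authors also deposited comparison tables with a log2 fold change, a Wald score and a p-value per gene. The Wald score had the opposite sign to the fold change in 100% of genes, so direction was taken from the fold change.

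From these values log2(normalized count + 1) was computed, which understates changes of low genes. The 13021 genes with a mean of at least 10 were tested with limma 3.58.1 in R 4.3.3 (trended empirical Bayes, Benjamini-Hochberg adjustment over all of them, threshold 0.05). Log2 differences are given ± SE with 95% intervals. The 5 controls, 6 knockdown, 4 ATF7 KO and 4 JDP2 KO libraries formed 4 groups in a single fit, and hairpins and clones were compared in a fit with each genotype as its own group. All deposited values were whole multiples of a step per library (tolerance 0.01, 100% of 388037 values), so reads were recovered for edgeR 4.0.16 and DESeq2 1.42.0 as alternatives. The other alternatives were TMM scaling, equal totals, a pseudocount of 8, a mean of at least 50, no filter, a replicate block, the shRNA Control alone, and leaving out each library or the 3 far ones. The fitting code was tested on simulated data.

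Same-numbered libraries were checked for pairing by the correlation of their deviations from group means. Members and gene lists were chosen with earlier results of these data known. Values are given for members called in any comparison and for the 3 members of each group with the largest differences from controls among those averaging 50 or more, in every library or, for the 6 knockdown libraries and in repeats, by range or median, and the others by range. Names in the annotation of GRCh38 gave positions and shared exons, and RefSeq gave promoters.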

Additional observations from a re-analysis of the deposited data

Results flagged for a closer look

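In 156 groups of libraries, each a member within a condition, 20 held a library far from the rest of its group by Dixon's test on the log2 scale. Chance flags about 1 in 20 groups. All values are normalized counts, and no cause was tested.

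The library IRF2BP2 shRNA1 replicate 3 stood apart for 6 members. TRIB3 was at 1942, EIF4EBP1 at 1747, PHGDH at 1690 and VARS1 at 3013 there, each the lowest of the knockdown. DDIT3 at 207 and WARS1 at 1217 were the highest.

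The library labelled IRF2BP2 shRNA2 replicate 3 stood apart for 4 members. ATF5 was highest there at 4407, while CEBPG at 2427, CTH at 86.8 and LARS1 at 1463 were lowest.

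In ATF7 KO1 replicate 2, ATF5 at 1027, EIF2S2 at 23198 and ALDH18A1 at 4645 were the lowest of ATF7 KO, and CTH at 217 was the highest. STC2 was highest in ATF7 KO2 replicate 1, at 17.4. In JDP2 KO1 replicate 2, MARS1 was lowest at 3713 and VARS1 highest at 41367. GARS1 was lowest of JDP2 KO in KO2 replicate 2, at 7906. Among the controls, PPP1R15A was lowest in KO Control replicate 2, at 1385, and GDF15 in shRNA Control replicate 1, at 0.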

How the results depend on the processing

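In the IRF2BP2 knockdown against controls, 15 members were called as reported. The count was 8 with a group for each genotype (3 higher, 5 lower), beside 1194 of 13021 genes called. It was 12 with the replicate block (3 higher, 9 lower), beside 1544 of 13021 genes. With the shRNA Control alone it was 0 of 37, beside 228 of 12738 genes, and 6 to 18 when 1 library was left out. It was 6 of 39 without KO Control replicate 2, beside 1446 of 13015 genes, so the member share came near that of all genes. It was 8 without KO Control replicate 1, beside 1080 of 13079 genes. It was 9 without shRNA Control replicate 1 (1057 of 13051 genes) or IRF2BP2 shRNA1 replicate 2 (1309 of 13047 genes). In JDP2 KO 0 members were called as reported, 1 with equal totals (AARS1 lower, beside 735 of 13146 genes), 2 with edgeR, 5 with DESeq2, and 0 to 6 when 1 library was left out. Between the ATF7 clones the count was 0 as reported, 1 with DESeq2 and 2 once the 3 libraries farthest from the median library were left out. For ATF7 KO, JDP2 KO against ATF7 KO, the hairpins and the clones, leaving out 1 library gave 0 to 0. For the knockdown against the knockouts it gave 13 to 18, around 16 as reported. The replicate block gave 12 of 39 members in that comparison, beside 3367 of 13021 genes. TMM scaling and equal totals gave 14 each, beside 4454 of 12935 and 4721 of 13146 genes. Uncalled members changed sign in a few settings. EIF4EBP1 in ATF7 KO ranged from -0.21 to 0.13 and VLDLR there from -0.22 to 0.068 when 1 library was left out. EIF4EBP1 in JDP2 KO ranged from -0.021 to 0.40 in the same way and was -0.021 without the 3 far libraries. The cause of these shifts was not tested. The labels do not say whether replicate numbers pair the libraries. Over 52 same-numbered pairs the correlation of deviations ran from -0.55 to 0.62 with a median of 0.06, and 12 of 18 libraries correlated best with their own number. In a group of 2 libraries the deviations mirror each other, so these correlations cannot decide whether the libraries are paired. Low counts limit what can be read for STC2, NUPR1, GDF15, PYCR1 and FGF21.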

Other observations

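Against the knockouts, genes of the neighbouring lists were also called in the IRF2BP2 knockdown, a comparison in which 36.5% of all genes were called. Of 10 other cytosolic synthetase and scaffold genes 3 were lower. Of 11 tested genes of one-carbon and other amino acid metabolism 5 were lower and 1 higher. AIMP2, AIMP1 and EEF1E1, the scaffold proteins of the multi-synthetase complex, were lower in the knockdown, by log2 differences of -1.26, -0.47 and -0.73. Of 17 mitochondrial synthetases 6 were lower and 1 higher, among them CARS2 at -1.40 and WARS2 at -1.27. PYCR3, a cytosolic enzyme of proline synthesis, was lower at -1.27.

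Of 13 eIF2 kinase and eIF2B genes 2 were higher and 2 lower. EIF2AK2, which encodes PKR, and EIF2AK3, which encodes PERK, were higher in the knockdown than in the knockouts, by 1.75 and 0.82. In the list of 10 unfolded protein response genes, ATF6 (0.78) and DNAJB9 (0.74) were higher, while SDF2L1 (-1.12), PDIA4 (-0.65) and XBP1 (-0.58) were lower. All of these passed a limma adjusted p under 0.05 over 13021 genes, a threshold that 36.5% of all genes passed in this comparison. Beside that share, the list counts are not read as a result particular to the pathway.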
